A study of Mus musculus with 9 samples.

Results

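Yap1, Birc2 and Birc3 lie next to each other on proximal mouse chromosome 9, and this stretch of DNA was present at high copy number in 2 of 9 mammary tumours. The region described here was taken as all array probes placed between positions 3000000 and 15000000 of chromosome 9, which were 3734 of 963261 distinct probes on the array. The genes were represented by 16 probes in the Birc2 interval (7.81 to 7.84 Mb), 26 in the Birc3 interval (7.84 to 7.88 Mb) and 49 in the Yap1 interval (7.93 to 8.01 Mb), positions that are stated to be those of the mm9 build and are rounded to 0.01 Mb. The genes and the region were selected on the copy ratios of these same arrays, so their levels are given as a description, without a test.

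The tumours came from mice with floxed Rb and p53 alleles (Rbf/f;p53f/f) on a mixed strain background, with the genes to be deleted by Cre recombinase. Cre was expressed in 7 tumours from the mouse mammary tumour virus promoter (MMTV-Cre), which is active in mammary epithelium, and in 2 it came from an adenovirus (Ad-CMVcre). The labels place the MMTV-Cre tumours in a nulliparous animal (1 tumour), a parous animal (1 tumour) and transplants (5 tumours), and both Ad-Cre tumours in transplants. They give no ages, no transplant donors or hosts and no tumour cell content, and whole tumour tissue also holds DNA of host cells. Each array held the DNA of 1 tumour in Cy5 and DNA pooled from tails of animals without tumours, of the same mixed background, in Cy3. There was 1 array per tumour, so no value has a replicate of its own tumour, and the errors given are SDs over the probes of an interval.

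Yap1 encodes a transcriptional coactivator that is held in the cytoplasm by the kinases of the Hippo pathway and, when free of them, binds TEAD factors in the nucleus and promotes growth. Birc2 and Birc3 encode cIAP1 and cIAP2, ubiquitin ligases of the inhibitor of apoptosis family that act in signalling from tumour necrosis factor receptors. The matching stretch of the human genome is a known site of amplification in carcinomas.

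The DNA around the start of each gene is shown because these stretches accompany the genes whose copy number is described, and because they differ widely in CG content. Each is 300 bases long, from 250 before to 50 after a transcription start site, on the minus strand, taken from RefSeq on the GRCm38.p6 build. Capitals mark GGAATG, the core motif bound by TEAD factors, searched on both strands (CATTCC on the other). The stretches were Birc2 at chr9:7837008-7837307, Birc3 at chr9:7873121-7873420 and Yap1 at chr9:8004547-8004846.
Birc2: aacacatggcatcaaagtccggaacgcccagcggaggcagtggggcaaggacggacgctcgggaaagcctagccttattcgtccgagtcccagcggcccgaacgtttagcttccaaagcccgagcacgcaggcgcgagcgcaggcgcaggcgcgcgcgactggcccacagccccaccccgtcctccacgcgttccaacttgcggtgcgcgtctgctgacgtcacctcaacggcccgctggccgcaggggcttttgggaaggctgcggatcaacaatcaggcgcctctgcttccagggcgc
Birc3: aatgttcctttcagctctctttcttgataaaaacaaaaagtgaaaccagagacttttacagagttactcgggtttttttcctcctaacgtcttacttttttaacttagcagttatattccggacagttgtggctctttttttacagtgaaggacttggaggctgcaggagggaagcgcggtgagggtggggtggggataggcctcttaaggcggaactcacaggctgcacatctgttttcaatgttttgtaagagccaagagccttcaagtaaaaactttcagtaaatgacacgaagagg
Yap1: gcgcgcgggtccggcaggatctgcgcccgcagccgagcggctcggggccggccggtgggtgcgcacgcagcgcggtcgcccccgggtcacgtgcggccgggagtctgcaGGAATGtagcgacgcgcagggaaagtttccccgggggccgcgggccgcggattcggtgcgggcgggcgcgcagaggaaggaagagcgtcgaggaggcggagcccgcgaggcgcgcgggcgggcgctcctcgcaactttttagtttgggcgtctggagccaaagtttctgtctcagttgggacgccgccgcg

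The Yap1 stretch held 49 CG dinucleotides and was 74% G or C, the Birc2 stretch held 34 and was 67%, and the Birc3 stretch held 7 and was 43%. RefSeq lists another Birc2 start site, whose stretch at chr9:7836757-7837056 overlaps the one shown, held 21 CG dinucleotides and was 60% G or C, with no match to the motif. The medians over all 32851 RefSeq stretches of this kind were 7 CG dinucleotides and 52.7%. The Yap1 stretch had 1 match to the motif and the other 2 had none, while 14.7% of all such stretches had at least 1. In the gene order of GRCm38.p6, Birc2, Birc3 and Yap1 follow each other with no other listed gene in between. A cluster of matrix metalloproteinase genes (from Mmp13 to Mmp7) and Tmem123 precede Birc2, and Cfap300, Cep126, the channel gene Trpc6, the progesterone receptor gene Pgr, Arhgap42 and Cntn5 follow Yap1. The array files name no build, so these neighbours are given by order alone and were not set against the edges described further on.

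Facts of the whole series that touch these values are few. Median processed signals were 1068 to 1147 in the reference channel and 1067 to 1157 in the tumour channel over the 9 arrays, and no spot of the 3 genes was saturated. On chromosome 11, the chromosome of Trp53, a run of 4 probes from 69397121 to 69402566 was low in most tumours. It kept between 30.7% and 59.8% of the signal of its flanks in the tumours other than MMTV-Cre transplant 2. It kept 30.8% in the nulliparous tumour and 50.4% in MMTV-Cre transplant 5, while the library labelled MMTV-Cre transplant 2 kept 97.8% and stands apart. This run was found by a scan of all autosomes for runs low in at least 7 tumours, so low values in most tumours were a condition of its choice. The scan also gave 1 run on chromosome 7, which kept 98.8% in the parous tumour and 18.4% to 66.5% in the others. The chromosome 11 run was not matched to a gene of the same build, and Rb1 was not examined. The nulliparous array was scanned on the same day as the parous and both Ad-Cre arrays, and the array of MMTV-Cre transplant 5 on the same day as those of transplants 3 and 4. In both sets the arrays scanned beside it had no amplification at the 3 genes.

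Copy number of all 3 genes was high in the nulliparous tumour and in MMTV-Cre transplant 5. In the other 7 tumours it was near the typical autosomal level of the same tumour. The values are log2 ratios of tumour over pooled tail DNA after subtraction of the median autosomal ratio of the array, so that 0 is the typical autosomal level of that tumour. Birc2 had a log2 ratio of 5.45 ± 0.24 (SD over 16 probes) in the nulliparous tumour and 3.79 ± 0.13 in MMTV-Cre transplant 5. In the others Birc2 was at -0.09 in the parous tumour, at 0.05, -0.01, 0.04 and -0.05 in MMTV-Cre transplants 1 to 4, and at 0.08 and 0.03 in Ad-Cre transplants 1 and 2. The 2 high tumours did not overlap with the rest, and 3.71 log2 units separated the lower of them from the highest other tumour. As ratios, Birc2 was 43.8-fold above the autosomal level in the nulliparous tumour and 13.8-fold in MMTV-Cre transplant 5. With another background correction (normexp), applied to raw signals that were not detrended or dye-normalised, these were 84.0-fold and 26.4-fold. Those of Birc3 and Yap1 were higher by 1.86 to 1.90 times as well. The folds therefore depend on the signals and correction used, while the separation of the 2 tumours from the rest does not.

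Birc3, the neighbour and closest relative of Birc2, followed the same pattern. Its log2 ratio was 5.34 ± 0.28 (SD over 26 probes, 40.6-fold) in the nulliparous tumour and 3.70 ± 0.18 (13.0-fold) in MMTV-Cre transplant 5. It was 0.05 in the parous tumour, 0.10, 0.02, 0.03 and -0.01 in MMTV-Cre transplants 1 to 4, and 0.12 and 0.06 in the Ad-Cre transplants. Again only the same 2 tumours were high, with a distance of 3.58 to the highest of the others.

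Yap1, the Hippo pathway effector, had a log2 ratio of 5.37 ± 0.28 (SD over 49 probes, 41.4-fold) in the nulliparous tumour and 3.74 ± 0.19 (13.3-fold) in MMTV-Cre transplant 5. It was -0.05 in the parous tumour, 0.04, -0.02, -0.01 and -0.06 in MMTV-Cre transplants 1 to 4, and 0.07 and 0.01 in the Ad-Cre transplants. The distance between the lower of the high tumours and the highest other tumour was 3.67. Every one of the 91 probes of the 3 genes was at a log2 ratio of 1 or more in the 2 high tumours, and 0 of 91 were in each of the other 7. Over the whole region 1229 of 3733 probes were at that level in the nulliparous tumour and 1047 of 3733 in MMTV-Cre transplant 5. The other 7 tumours had between 1 and 8 such probes in the region. The 91 probes are neighbours in a selected region, so their counts are 1 observation per tumour. The lowest single Yap1 probe of the nulliparous tumour was at 4.74 and that of MMTV-Cre transplant 5 at 3.23, against a highest single Yap1 probe of 0.47 in the other tumours, in MMTV-Cre transplant 1.

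**Figure D1:**
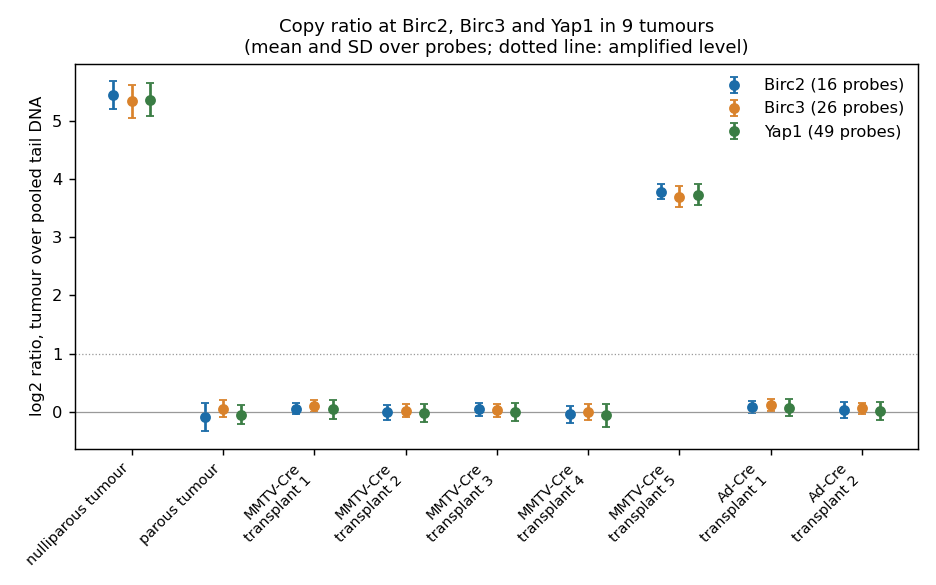
Mean log2 ratio of tumour over pooled tail DNA (vertical axis) at Birc2, Birc3 and Yap1 in each of the 9 tumours (horizontal axis), with bars for the SD over the probes of each gene and a dotted line at the level of 1 used for amplified. The nulliparous tumour sits between 5.34 and 5.45 and MMTV-Cre transplant 5 between 3.70 and 3.79, while the other 7 tumours lie between -0.09 and 0.12.

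Within a tumour the 3 genes had nearly equal levels. Birc2 exceeded Birc3 by 0.11 and Yap1 by 0.08 in the nulliparous tumour, and by 0.08 and 0.05 in MMTV-Cre transplant 5, less than the SD over probes of any of the 3 genes in that tumour. The order Birc2, Yap1, Birc3 was the same in both tumours, but neighbours in it were not separated beyond the spread of their probes. Between the tumours the difference was larger than that spread. The nulliparous tumour was above MMTV-Cre transplant 5 by 1.67 at Birc2, 1.64 at Birc3 and 1.63 at Yap1, which are ratios of 3.17, 3.12 and 3.10. Tumour cell content was not measured, and more tumour cells cannot be told apart from more copies per tumour cell.

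Averaged by group, the MMTV-Cre transplants had 0.76 ± 1.69 at Birc2, 0.77 ± 1.64 at Birc3 and 0.74 ± 1.68 at Yap1 (log2, SD over tumours, n = 5). These means rested on transplant 5. Without it they were 0.01, 0.03 and -0.01. The Ad-Cre transplants had 0.06 ± 0.04, 0.09 ± 0.04 and 0.04 ± 0.04 (n = 2), and the nulliparous and parous groups hold 1 tumour each. Amplification was therefore seen in 1 of 5 MMTV-Cre transplants and 0 of 2 Ad-Cre transplants.

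The level of 1 is rare in these genomes. Of 23354 autosomal windows of 100 kb with at least 3 probes, 0.188% were at a log2 ratio of 1 or more in the nulliparous tumour and 0.244% in MMTV-Cre transplant 5. The shares were 0.355% in the parous tumour, 0.638%, 0.0428%, 0.501% and 0.12% in MMTV-Cre transplants 1 to 4, and 0.103% and 0.176% in the Ad-Cre transplants. Since the genes were chosen for being high, these shares are the background of the level and not a measure of how unusual the genes are. In the nulliparous tumour 42 of its 44 such windows lay in the region, and in MMTV-Cre transplant 5 28 of 57. The window with Birc2 and Birc3 was the highest of all 23354 in the nulliparous tumour (5.36) and the next was the window with most of Yap1 (5.33). In MMTV-Cre transplant 5 these windows ranked 8 and 11 (3.72 and 3.68), behind a highest window at 7400001 of the same chromosome (3.89). Outside the region, the highest window was at 1.85 on chromosome 7 in the nulliparous tumour and at 3.68 on chromosome 4 in MMTV-Cre transplant 5. This chromosome 4 window, at 111900001, was not particular to MMTV-Cre transplant 5. It was the highest of all windows in MMTV-Cre transplants 1, 3 and 4 and in Ad-Cre transplant 1, at 2.88 to 3.17. The shares of these tumours include it, and why it was high in them was not tested.

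Windows with the pattern of Yap1, at 1 or more in the nulliparous tumour and MMTV-Cre transplant 5 and below 1 in each of the other 7, numbered 20, or 0.0856% of all windows. All 20 lay in the region, between 6500001 and 9200000, and 0 lay elsewhere. With a level of 0.5 in place of 1 the count elsewhere was also 0. By this measure of likeness over 9 tumours, no window outside proximal chromosome 9 followed the 3 genes.

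The amplified DNA had different outlines in the 2 tumours. Each tumour's probes were cut into segments of one level, segments at 1 or more were called amplified, and amplified segments less than 1000 kb apart were joined into one amplicon. In the nulliparous tumour the amplicon ran from 3850555 to 9376740 (5526 kb) with 18 amplified segments and a mean log2 ratio of 4.40 (21.1-fold) over their 1226 probes. In MMTV-Cre transplant 5 it ran from 6469536 to 9189138 (2720 kb) with 3 amplified segments and a mean of 3.43 (10.8-fold) over 980 probes. The edges of the amplicons were placed between neighbouring probes. At the left edge of the nulliparous amplicon the last 5 probes outside averaged -0.36 and the first 5 inside 3.76, over a gap of 2.81 kb. At its right edge the 5 probes inside averaged 4.57 and the 5 outside -0.02, over 3.93 kb. In MMTV-Cre transplant 5 the left edge was a step on a gain, from 1.07 outside to 2.98 inside over 10.6 kb, and the right edge went from 2.58 inside to -0.24 outside over 1.97 kb. With normexp the left edge of this tumour was at 5641050.

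The nulliparous amplicon was not continuous. It had 5 amplified blocks with 4 gaps, and the blocks covered 67.9% of its span (3752 kb). The first block, from 3850555 to 4481302, had a mean of 3.75, the second, from 5232532 to 6049826, 4.28, and the third, from 6086103 to 6379561, 4.11. The fourth block, from 6560456 to 8349468, was the longest (1789 kb, 666 probes), had the highest mean (4.74, 26.7-fold) and held Birc2, Birc3 and Yap1. The last block, from 9154865 to 9376740, was at 3.83. None of the 4 gaps was amplified. The first 3 were at -0.43 (734 kb), -0.44 (28.2 kb, 5 probes) and -0.40 (172 kb), and the last, right of the genes, at -0.06 (766 kb). The last gap was close to the segment right of the amplicon, from 9380674 to 9837983 (-0.06), and the first 3 were close to the long segment after that, from 9838923 to 20405727 (-0.43).

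Left of the first block, 3 probes between 3259475 and 3291239 of the nulliparous tumour were at 3.35 to 3.85 (median 3.81), while the probes on either side of them were at -0.28 and -0.31. In the 7 tumours without the amplicon these 3 probes were between -0.23 and 0.21. They were outside the amplicon in the settings used here and inside it with a penalty factor of 5, with bins of 3 probes or with a level of 0.5.

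MMTV-Cre transplant 5 had a single continuous block with 3 levels. From 6469536 to 7278356 the mean was 2.94 (7.69-fold), from 7280758 to 8702214 it was 3.71 (13.1-fold, 521 probes), and from 8704724 to 9189138 it was 3.34 (10.1-fold). All 3 genes lay on the middle, highest level. The flanks differed. On the left a lower gain reached back to the first probe of the chromosome, at 0.90 from 5998633 to 6458911 and at 0.70 from 3102771 to 5988705. On the right the ratio dropped within 1.97 kb to -0.32 and then -0.21, while the chromosome beyond 15 Mb had a median of -0.14. The last gap of the nulliparous tumour, at -0.06, was at 3.45 in MMTV-Cre transplant 5, so this DNA was amplified in 1 of the 2 tumours.

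**Figure D2:**
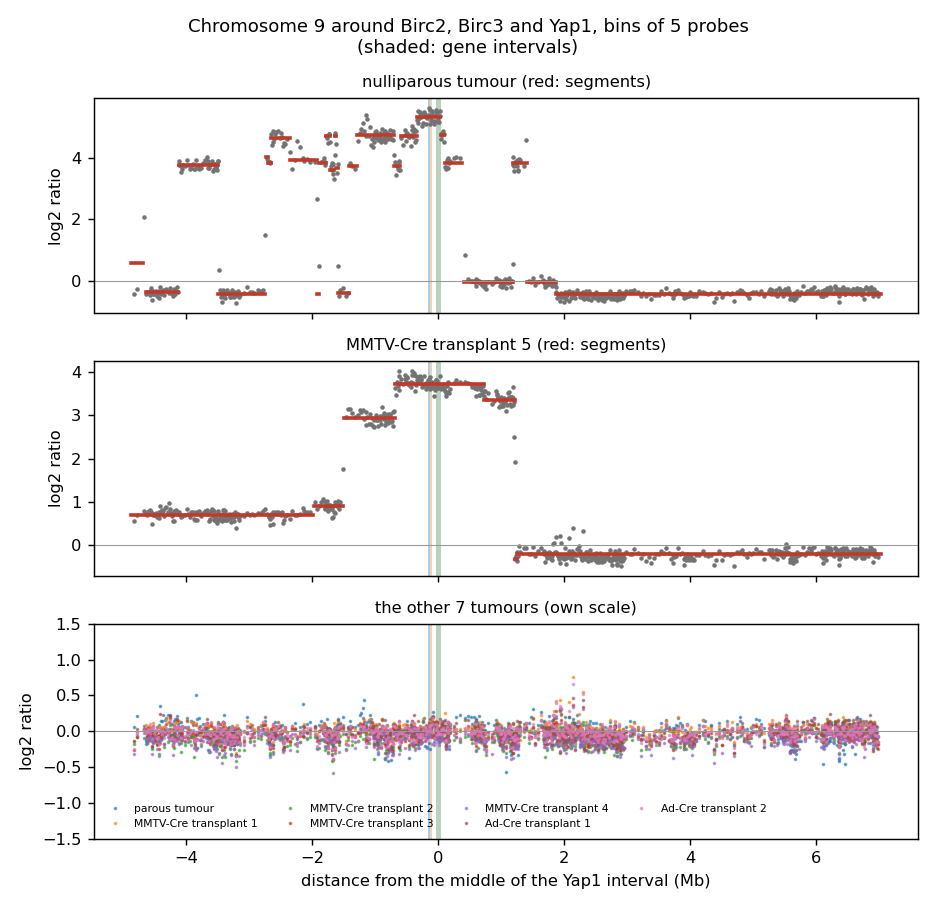
Log2 ratio of tumour over pooled tail DNA (vertical axes, each with its own scale) against distance from the middle of the Yap1 interval in Mb, for the nulliparous tumour, MMTV-Cre transplant 5 and the other 7 tumours, with each point the mean of 5 probes, red lines for segment means and shading for the gene intervals. The nulliparous tumour shows 5 blocks with 4 gaps, MMTV-Cre transplant 5 shows 1 block on 3 levels, and the bins of the other 7 lie between -0.59 and 0.75.

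Steps of 0.2 or more between neighbouring segments were counted in the region. There were 24 in the nulliparous tumour, of 25 on all of chromosome 9 and 101 on all autosomes. MMTV-Cre transplant 5 had 4, of 10 on chromosome 9 and 128 on the autosomes. The change between its 2 left gains, from 0.702 to 0.8996, fell just short of a step. With normexp this tumour had 5 steps in the region, and with steps of 0.4 or more it had 3. The other 7 tumours had 0 each in the region and between 2 and 8 on chromosome 9. In these 7 tumours no bin of 5 probes in the region reached 1. At the right limit of the region, the 20 probes inside 15 Mb averaged -0.42 and the 20 beyond it -0.28 in the nulliparous tumour. In MMTV-Cre transplant 5 they averaged -0.21 and -0.10, so the limit itself lies outside the amplified DNA.

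The amplified segments of the nulliparous tumour were grouped into 3 levels by cutting their ordered means at the largest gaps. This grouping was made after the values were seen, and the number of levels was set and not found. The lowest held 11 segments with means of 3.60 to 4.01 (13.8-fold over all their probes), the middle one 6 segments with means of 4.64 to 4.74 (26.3-fold) and the highest 1 segment at 5.34 (40.4-fold). Relative to the lowest level the ratios were 1.91 for the middle and 2.93 for the highest. The single highest segment ran from 7635528 to 8007460 (372 kb, 194 probes). It held all 16 Birc2 probes, all 26 Birc3 probes and 48 of the 49 Yap1 probes. The remaining Yap1 probe lay just past its right edge, where the level fell to 4.74. These levels are segment means, and single bins of 5 probes elsewhere were as high. In the middle-level segment from 6684532 to 7264695, neighbouring bins reached 5.40 and 5.27, while others there went down to 4.34.

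The part amplified in both tumours ran from 6469536 to 9189138 when spans are compared, since the amplicon of MMTV-Cre transplant 5 lies inside that of the nulliparous tumour. With the gaps taken out it came to 2 pieces, from 6560456 to 8349468 (1789 kb) and from 9154865 to 9189138 (34.3 kb). The genes lie in the larger piece. Its left end is 1250 kb before the Birc2 interval and its right end 339 kb past the Yap1 interval. The highest segment of the nulliparous tumour lay wholly inside the highest segment of MMTV-Cre transplant 5, so the part shared by both highest segments was also 7635528 to 8007460. There MMTV-Cre transplant 5 had a mean of 3.73 ± 0.21 (SD over 194 probes, 13.3-fold) and the nulliparous tumour 5.34 ± 0.32, against -0.07 to 0.05 in the other 7. The 95% profile-likelihood interval of its left edge ran from 7628901 to 7637809 and that of the start of the next segment from 8007401 to 8010359, so the right end of the highest level and the end of the rounded Yap1 interval at 8010000 cannot be told apart. With normexp the highest nulliparous segment ran from 7630824 to 8063062, past the Yap1 interval and outside these intervals on the right.

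**Figure D3:**
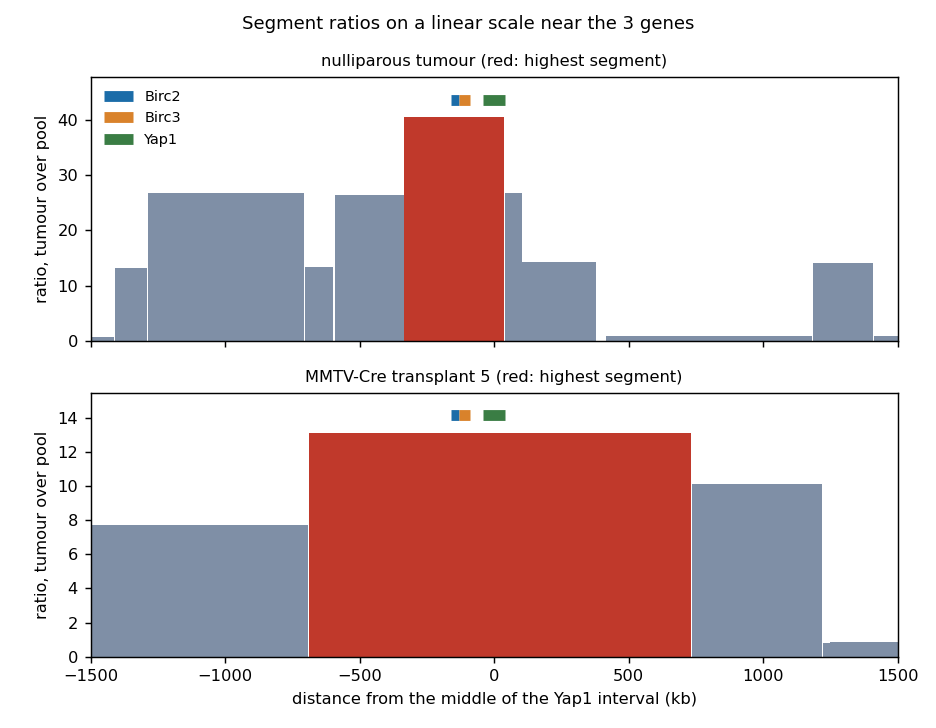
Ratio of tumour over pooled tail DNA on a linear scale (vertical axes, from 0) for each segment within 1500 kb of the middle of the Yap1 interval (horizontal axes, kb), with the highest segment of each tumour in red and the gene intervals as coloured bars. The red segment of the nulliparous tumour (40.4-fold, 372 kb) covers nearly the same stretch as the 3 genes and DNA left of them, and the red segment of MMTV-Cre transplant 5 (13.1-fold) is wider on both sides.

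The 2 channels of the arrays were then looked at apart, each probe relative to its median over the 7 tumours without the amplicon. In the tumour channel alone Birc2, Birc3 and Yap1 were at 4.86, 4.90 and 4.87 (29.0-, 29.8- and 29.3-fold) in the nulliparous tumour and at 3.53, 3.46 and 3.51 (11.5-, 11.0- and 11.4-fold) in MMTV-Cre transplant 5. These are lower than the ratios of both channels, because the reference channel, which holds the same pooled tail DNA on every array, was itself low at the genes. It read 66.7%, 76.4% and 70.3% of its usual level at Birc2, Birc3 and Yap1 on the nulliparous array and 84.5%, 88.5% and 85.2% on that of MMTV-Cre transplant 5. On the other 7 arrays it read between 98.5% and 102% at the 3 genes. In the gaps of the nulliparous amplicon it was at 98.7% to 101%.

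Averaged over each level of amplification, the reference channel was lower where the level was higher. Over the 3 levels of the nulliparous tumour it read 90.6%, 83.5% and 74.5%, from lowest to highest. Single segments overlapped between levels, with 86.7% to 94.3% in the lowest level and 78.5% to 90.7% in the middle one. With the tumour channel alone the 3 levels were 12.9-, 22.6- and 30.3-fold, so the middle and highest levels were 1.75 and 2.35 times the lowest in place of 1.91 and 2.93. The order of the levels was the same in both measures. The cause of the low reference signal was not tested.

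**Figure D4:**
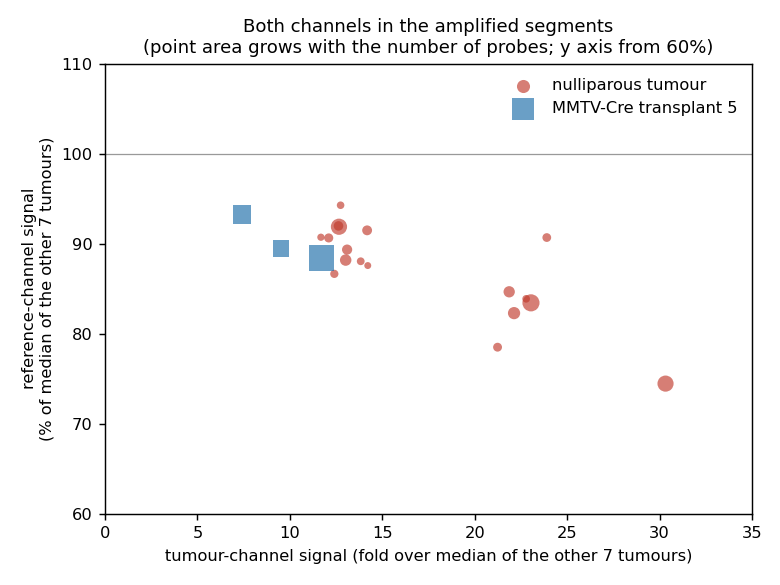
Reference-channel signal in percent of its median over the other 7 tumours (vertical axis, from 60%) against tumour-channel signal as a fold over the same median (horizontal axis) for each amplified segment, with circles for the 18 segments of the nulliparous tumour, squares for the 3 of MMTV-Cre transplant 5 and areas that grow with the number of probes. The highest nulliparous segment, at 30.3-fold, has a reference signal of 74.5%, and all segments lie below 100%.

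Other genes of the same families could be placed by chromosome alone. Of the 10 listed members of the inhibitor of apoptosis family, 7 besides Birc2 and Birc3 are autosomal, namely Naip1, Naip2, Naip5, Naip6, Birc5, Birc6 and Birc7. In the nulliparous tumour 7 of these 7 were on chromosomes without any 100 kb window at 1 or more, and in MMTV-Cre transplant 5 2 of 7 were, Birc6 and Birc7. Xiap lies on the X chromosome, which was not analysed here. Of 23 listed Hippo pathway genes, 21 besides Yap1 are autosomal. In the nulliparous tumour 16 of these 21 lay on chromosomes without such a window, and in MMTV-Cre transplant 5 6 of 21 did. Of all 20665 autosomal coding genes in RefSeq, 80.6% lie on such chromosomes (16 of 19 autosomes) in the nulliparous tumour and 39.0% (8 of 19) in MMTV-Cre transplant 5, so the counts of both lists are near what chromosome alone gives. Among the 16 were the coactivator Wwtr1, the kinase genes Lats1 and Lats2 and the TEAD genes Tead3 and Tead4. A chromosome with such a window says nothing on the gene itself. Amotl1 and Amotl2, which encode angiomotin-like partners of Yap1, are on chromosome 9 as well and were not placed within it.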

How the data were processed

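The samples were 9 mammary tumours hybridised against pooled tail DNA on 2-colour Agilent tiling arrays. Per the file headers, the authors' spot intensity values came from Agilent Feature Extraction 10.5.1.1, and the deposited processed signals are background-subtracted, detrended and linearly dye-normalised. The authors deposited log10 ratios of red over green as a series table, used here on the log2 scale as an alternative. The authors also deposited raw median signals, used for normexp, and quality flags. The genome build is not given in the sources used here, and no sequence of the probes was used.

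Red over green processed signal gave a log2 ratio per probe, leaving out spots that were dim in the reference channel or flagged (1597 to 2115 per array). Probes printed more than once were averaged, and the median over autosomal probes was subtracted. Bins of 5 probes were segmented by penalised least squares (PELT, penalty factor 10, at least 2 bins), and edges were then placed between single probes with 95% profile-likelihood intervals. The segmentation was tested on simulated data, with longer blocks, larger steps and less spread of probes than in some segments here. That test does not cover the shortest segments or the smallest steps. Amplified meant 1 or more. With 9 arrays, values of groups are imprecise.

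Groups follow the labels. Replicates were numbered by accession, and the numbers pair nothing. The genes, region and gene lists were chosen with earlier results of these data known. What to name was decided for this report, apart from the choice of the region. It held Yap1, Birc2 and Birc3 with their values in every tumour, and up to 5 windows elsewhere with the same pattern (there were 0). It also held members of 2 fixed gene lists and the neighbours, by chromosome or order only. RefSeq (GRCm38.p6) gave names for 39 of 40 listed neighbours and all members of the lists. Alternatives were normexp (offset 50), the deposited series table, subtraction of the mode, other filters, intervals, segmentation settings and levels, and each transplant left out. Python 3.11.15, numpy 2.4.6, pandas 2.3.3, numba 0.67.0, matplotlib 3.10.9, R 4.3.3 and limma 3.58.1 were used.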

Additional observations from a re-analysis of the deposited data

Results flagged for a closer look

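Among the 5 MMTV-Cre transplants, transplant 5 lay far from the others at all 3 genes. The distance from its log2 ratio to the next highest transplant, as a share of the range of the 5, was 0.974 at Birc2, 0.9714 at Birc3 and 0.9717 at Yap1, past the mark of 0.71 (Dixon's ratio, 5 samples) that about 1 in 20 unselected groups pass by chance. The genes were chosen for these values, so passing the mark is no test of them, and as neighbours on one amplicon the 3 are one observation.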

How the results depend on the processing

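Of 347 values recomputed under an alternative, 320 moved by less than the SD over probes, the SD over tumours or the tolerance for edges and counts, 27 moved by more, and 0 amplified values changed direction. Part of the 320 was fixed in advance. Leaving out 1 tumour cannot move a group mean by its SD over tumours. The Birc2 mean of the MMTV-Cre transplants thus counts among them, though it fell from 0.76 to 0.01 without transplant 5. No spot of the 3 genes was saturated, so leaving out saturated spots changed nothing there. The series table holds the same ratios up to rounding, and the common part repeats the edges of MMTV-Cre transplant 5. Both amplified tumours stayed between 3.46 and 6.39 and the other 7 between -0.12 and 0.21 at the 3 genes under every alternative run. With the normexp correction Birc2, Birc3 and Yap1 were at 6.39, 6.26 and 6.30 in the nulliparous tumour and at 4.72, 4.61 and 4.63 in MMTV-Cre transplant 5, Birc2 was at 0.17 in MMTV-Cre transplant 3 and 0.20 in Ad-Cre transplant 1, and the nulliparous amplicon had a mean of 5.25. The tumour channel alone, chosen after seeing the data, gave the nulliparous tumour 4.86, 4.90 and 4.87 and MMTV-Cre transplant 5 values of 3.53, 3.46 and 3.51. Centred on the mode, Ad-Cre transplant 1 had -0.067, -0.030 and -0.080 at the 3 genes, on the other side of 0 from its main values. The nulliparous left edge was at 3259475 with a penalty factor of 5 or bins of 3 probes, and at 3102771 with a level of 0.5. In MMTV-Cre transplant 5 and in the common part the left edge was at 3102771 with that level, where the lower gain joins (mean 2.12 in MMTV-Cre transplant 5), and at 5641050 with normexp. The right edge of the part shared by the highest segments was at 8063062 with normexp, an alternative added after seeing the data. The causes of the shifts under normexp and the mode were not tested. Without each MMTV-Cre transplant in turn the group means ran from 0.01 to 0.97 at Birc2, 0.03 to 0.96 at Birc3 and -0.01 to 0.94 at Yap1. No paired analysis was possible because replicates were numbered by accession and the values come from no test. With normexp all 6 amplified gene values moved by more than their SD over probes. It started from raw signals that were not detrended or dye-normalised, so these steps and the background correction cannot be told apart.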
